A study of Mus musculus with 6 samples.

Results

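The genes described here encode the MOS, MAPK and RSK cascade of the oocyte: the kinase Mos, the MAPK kinases Map2k1 (MEK1) and Map2k2 (MEK2), the MAP kinase Mapk3 (ERK1), and the ribosomal S6 kinases Rps6ka1 (RSK1), Rps6ka2 (RSK3) and Rps6ka3 (RSK2). They were taken by name, with Ensembl gene IDs matched to symbols, and are 7 of the 53700 genes in the count tables. All 7 were found and all 7 had enough counts to be tested, among 16473 tested genes. PolyA RNA had been sequenced from germinal vesicle (GV) oocytes of mice on the C57BL/6N background, in 3 libraries from Zar1 knockout and 3 libraries from wild-type oocytes, each prepared from 10 oocytes. ZAR1 is an RNA-binding protein of the oocyte. The library titles call them biological replicates of each genotype. The sources used here give neither the deleted part of Zar1 nor the age of the animals. They also do not say whether each pool came from separate animals. The spread behind each p-value is that between these pools, and whether it covers differences between animals is not known.

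MOS is made in the oocyte from an mRNA that is stored in the GV stage with a short poly(A) tail and is translated during meiotic maturation, after elongation of that tail. MOS phosphorylates MEK1 and MEK2, these phosphorylate the ERK kinases, and active ERK phosphorylates the RSK kinases. In the mature egg the cascade acts as cytostatic factor: it holds the egg at metaphase of the second meiotic division until fertilization. In mouse eggs that lack Mos this arrest fails and many eggs activate without sperm. The cascade is regulated mainly by translation and phosphorylation, neither of which was measured here. The values are levels of polyA mRNA in oocytes before maturation, relative to the other mRNAs of the library. Tail length was not measured, so a change in the amount of an mRNA and a change in its capture as polyA RNA cannot be told apart.

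Because the Mos mRNA is a textbook case of tail control through the 3′ UTR, 30-base stretches of 3′ UTRs were read. They came from GENCODE M21 transcripts (built on GRCm38) of Mos, of both genes that rose, and of 3 genes with a TTTTAT match. TTTTAT and TTTTAAT are the letters of a cytoplasmic polyadenylation element (CPE). Positions count from the first base after the stop codon on the transcript's strand. Capitals mark the polyadenylation hexamer (AATAAA), the CPE letters TTTTAT, and, marked in Mos only, the T-rich run TTTTTA.
Mos, bases 82 to 111 of 126: accactagggcataTTTTTAggaAATAAAg
Rps6ka1, bases 733 to 762 of 762: cctttctAATAAActtacaatccagttaaa
Mapk3, bases 583 to 612 of 612: atataaatatagagatgtgtatatggatga
Rps6ka2, bases 2945 to 2974 of 2974: ttgAATAAAcatggaTTTTATgaagtgtaa
Map2k1, bases 478 to 507 of 915: acgtcatggtatTTTTATtttttgcttttg
Rps6ka3, bases 3621 to 3650 of 4759: cacaagtaccacTTTTATtccagtctttaa

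The 3′ UTR of Mos was the shortest of the cascade and held neither TTTTAT nor TTTTAAT. Its hexamer lay 22 bases from the end, and the T-rich run TTTTTA, which was looked for only after this UTR had been read, occurred at 2 places. TTTTTA also occurred in Map2k1 (4 places), Rps6ka1 (2), Rps6ka2 (1) and Rps6ka3 (5), and in neither Map2k2 nor Mapk3. The Map2k1 stretch above holds this run too, unmarked. Motifs were searched on the sense strand of the RNA. Of 12674 tested genes with a 3′ UTR of at least 30 bases, 61.1% held TTTTAT or TTTTAAT, 81.4% held AATAAA and 60.5% held TTTTTA. Among the 474 of these UTRs within 1.2-fold of the length of that of Mos, 12.7% held TTTTAT, 5.06% held TTTTAAT and 15.2% held TTTTTA. Map2k1, Rps6ka2 and Rps6ka3 held TTTTAT, and Map2k2, Mapk3 and Rps6ka1 held neither TTTTAT nor TTTTAAT. Among UTRs within 1.2-fold of each gene's UTR length, TTTTAT was held by 94.1% for Rps6ka3, 87.2% for Rps6ka2 and 55.1% for Map2k1. The shares were 56.65% for Map2k2, 42.3% for Mapk3 and 48.8% for Rps6ka1. The last TTTTAT lay 1127 bases from the 3′ end in Rps6ka3, 426 in Map2k1 and 15 in Rps6ka2. Their last AATAAA lay 21, 21 and 27 bases from it. Whether any match acts as a CPE was not tested. TTTTAT and TTTTAAT were the only spellings of a CPE searched, so a UTR that held neither, as in Mos, may still hold a CPE. These matches are descriptions of the annotated transcript, and the 3′ ends used in these oocytes were not analysed here.

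Gene counts summed to between 35066851 and 37946223 in knockout libraries and between 32126555 and 39148833 in wild-type libraries. Zar1 itself had 69, 96 and 226 counts in knockout replicates 1, 2 and 3, against 15245, 13612 and 12810 counts in wild-type replicates 1, 2 and 3. Its level averaged 3.58 ± 2.28 CPM (counts scaled to the library total with TMM factors) in knockout and 387 ± 8.02 CPM in wild type (SD, n = 3 each). All 10 oocyte markers examined were detected, with a summed level of 16397 to 17431 CPM in knockout and 15270 to 16569 CPM in wild type. Cumulus and granulosa cell markers summed to 138 to 142 CPM in knockout and 119 to 129 CPM in wild type, and 13 of 18 reached 10 counts in some library. Most of these counts came from Nr5a2 and Cyp19a1. Other members of the list were present at lower counts and moved in both directions: Has2 had 117, 232 and 155 counts in knockout against 86, 58 and 47 in wild type, Kitl had 17, 21 and 49 in knockout against 176, 132 and 128 in wild type, and Col4a1 had 236, 151 and 189 in knockout against 390, 272 and 294 in wild type. Cyp11a1 reached 224 counts and Hsd17b1 149 in knockout, against 118 and 153 in wild type. The defining marker Foxl2 had at most 7 counts in any library, Fshr had 0, 47 and 0 counts in knockout against 8, 1 and 4 in wild type, and Tnfaip6 was at 0; the part of these markers in the results below was not tested. Theca and stroma markers summed to at most 1.45 CPM in knockout and 2.38 CPM in wild type, and blood markers to at most 2.28 CPM in knockout and 1.26 CPM in wild type, with Hbb-bs and Hba-a1 at 0. Knockout replicate 3 lay farther from the other knockout libraries than any other pair of the same genotype, with a chi-square over its degrees of freedom of 32.6 and 39.9 across genes, against 12.8 to 20.6 for the other pairs.

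Of the 7 genes of the cascade, 2 were higher in knockout oocytes (Mapk3 and Rps6ka1), 0 were lower and 5 did not pass an adjusted p of 0.05 in edgeR's quasi-likelihood test. Across all tested genes 33.4% passed, 14.9% as higher and 18.5% as lower, so a share of 28.6% among the members is near the background. Their median log2 fold change was 0.33, against 0.00745 over all genes. Every knockout library lay above every wild-type library for 3 members (Map2k1, Mapk3 and Rps6ka1), an arrangement found in 22.2% of all tested genes. Every knockout library lay below for no member and for 25.5% of all tested genes. When each library's trends over GC content and transcript length were entered as offsets, 3 members were higher (Mapk3, Rps6ka1 and Rps6ka3) and 1 was lower (Mos). Of all tested genes 15.9% were higher and 15.7% lower in that fit. The members differ in GC content, between 40.5% in the longest transcript of Rps6ka3 and 60.4% in that of Map2k2, where the quartiles over tested genes were 44.3% and 53.1%.

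**Figure D1:**
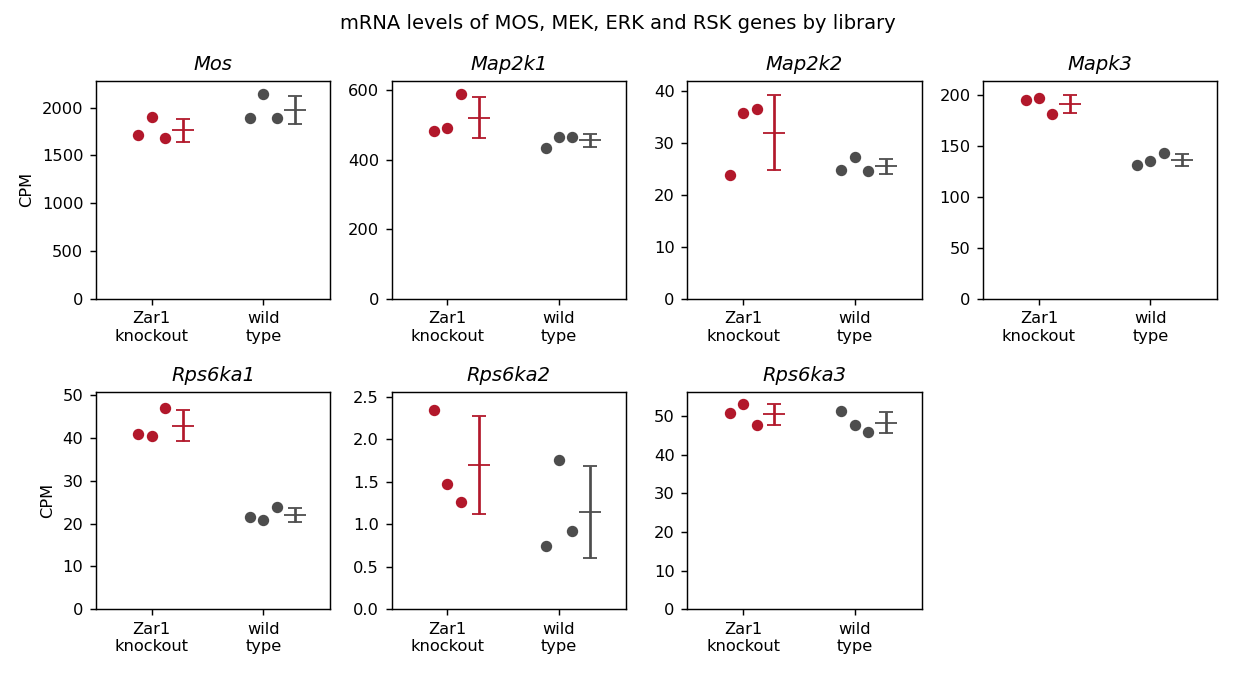
Level of each of the 7 genes in the 6 libraries, in CPM on a linear axis that starts at 0 for each gene, with Zar1 knockout libraries (red) left of wild-type libraries (grey). Points are libraries, and the bars beside them give the mean ± SD (n = 3). Mapk3 and Rps6ka1 show knockout points above all wild-type points, while the Mos points of both genotypes lie between 1679 and 2144 CPM and overlap.

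Mos, which starts the cascade, was the most abundant member in both genotypes and did not pass the test (Mos: Ensembl ENSMUSG00000078365.6, chromosome 4). It had 1709, 1902 and 1679 CPM in knockout replicates 1, 2 and 3, against 1887, 2144 and 1890.4 CPM in wild-type replicates 1, 2 and 3. Knockout replicate 2 lay above wild-type replicates 1 and 3, so the genotypes overlapped. The means were 1763 ± 121 CPM in knockout and 1974 ± 148 CPM in wild type (SD, n = 3 each). The log2 fold change was -0.16 ± 0.08 (SE), with a 95% interval from -0.34 to 0.01 and an edgeR adjusted p of 0.144. With the offsets for GC content and length the log2 fold change of Mos was -0.29 ± 0.08 and passed the test (edgeR adjusted p = 0.0217). Without wild-type replicate 2 it was -0.10 (edgeR adjusted p = 0.388). In pools of oocytes, fewer cells that carry an mRNA and less of that mRNA per cell cannot be told apart.

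Of the 2 MAPK kinases, which MOS activates, neither passed the test. Map2k1, the more abundant one (ENSMUSG00000004936.9, chromosome 9), had 483, 492 and 589 CPM in knockout replicates 1, 2 and 3, against 435, 467 and 467 CPM in wild-type replicates 1, 2 and 3. All knockout values of Map2k1 lay above all wild-type values, with knockout replicate 3 the highest by far. Its means were 522 ± 59.1 CPM in knockout and 456 ± 18.7 CPM in wild type, a log2 fold change of 0.19 ± 0.09 (95% interval -0.01 to 0.39, edgeR adjusted p = 0.126). Map2k1 had a log2 fold change of 0.095 once knockout replicate 3 was left out.

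Map2k2 (ENSMUSG00000035027.19, chromosome 10) had 23.8, 35.8 and 36.6 CPM in knockout replicates 1, 2 and 3, against 24.8, 27.3 and 24.7 CPM in wild-type replicates 1, 2 and 3. Knockout replicate 1 of Map2k2 was the lowest of all 6 libraries, and the other 2 knockout libraries were the highest. The means were 32.1 ± 7.16 CPM in knockout and 25.6 ± 1.48 CPM in wild type, a log2 fold change of 0.33 ± 0.16 (95% interval -0.05 to 0.70, edgeR adjusted p = 0.162). Leaving out knockout replicate 1 brought Map2k2 to 0.51 and past the threshold (edgeR adjusted p = 0.0145). Leaving out knockout replicate 2 or 3 brought Map2k2 to 0.25 or 0.22. With the GC and length offsets it was 0.0057 (edgeR adjusted p = 0.984).

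ERK1, which MEK1 and MEK2 activate, had a higher mRNA level in knockout oocytes. Its gene Mapk3 (ENSMUSG00000063065.14, chromosome 7) had 196, 198 and 181 CPM in knockout replicates 1, 2 and 3, against 132, 136 and 143 CPM in wild-type replicates 1, 2 and 3. The lowest knockout value lay above the highest wild-type value. Mapk3 averaged 192 ± 8.95 CPM in knockout and 137 ± 5.91 CPM in wild type (SD, n = 3 each), which is 1.40-fold higher. Its log2 fold change was 0.48 ± 0.07 (95% interval 0.32 to 0.65, edgeR adjusted p = 0.00128), and leaving out 1 library at a time gave 0.45 to 0.52, each past the threshold. With the GC and length offsets the rise of Mapk3 was smaller, at 0.25 ± 0.07 (edgeR adjusted p = 0.0343).

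**Figure D2:**
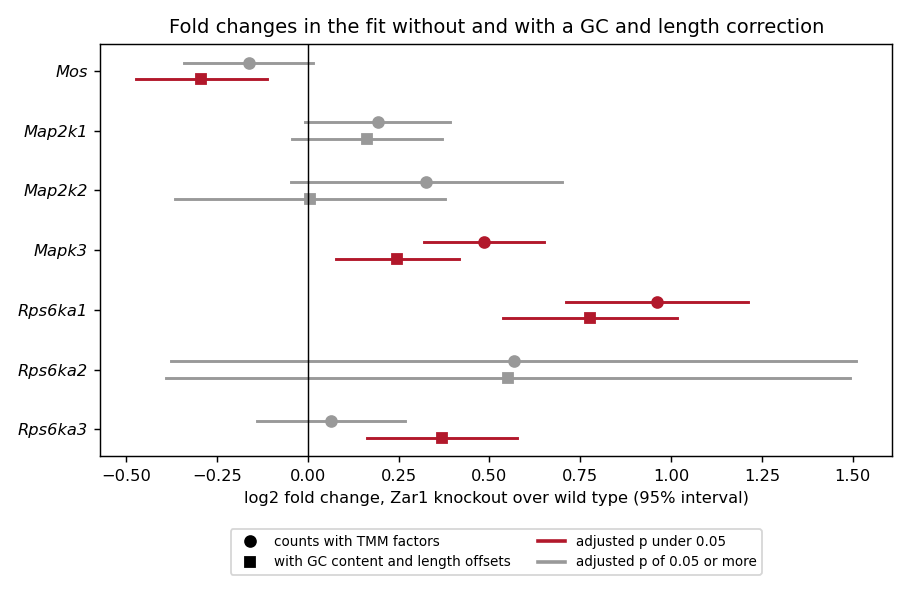
Log2 fold change of Zar1 knockout over wild type for the 7 genes, as points with 95% intervals, from the edgeR fit (circles) and from the fit with GC content and length offsets (squares); red passed an adjusted p of 0.05 and grey did not. The intervals of Mapk3 (0.32 to 0.65) and Rps6ka1 (0.71 to 1.21) lie above 0, and with the offsets Mos and Rps6ka3 shift away from 0, while Map2k2 (0.33 to 0.0057), Mapk3 (0.48 to 0.25) and Rps6ka1 (0.96 to 0.78) shift towards it.

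Among the RSK genes, whose kinases ERK activates, Rps6ka1 was higher in knockout oocytes. Rps6ka1, the RSK1 gene (ENSMUSG00000003644.18, chromosome 4), had 40.9, 40.4 and 46.9 CPM in knockout replicates 1, 2 and 3, against 21.4, 20.7 and 23.8 CPM in wild-type replicates 1, 2 and 3. Every knockout value exceeded the highest wild-type value by more than the range within either genotype. The means were 42.8 ± 3.64 CPM in knockout and 22.0 ± 1.61 CPM in wild type (SD, n = 3 each), which is 1.95-fold higher. The log2 fold change of Rps6ka1 was 0.96 ± 0.11 (95% interval 0.71 to 1.21, edgeR adjusted p = 0.000316). It passed under all 18 alternatives, between 0.78 with the GC and length offsets and 1.01 without wild-type replicate 3. The whole span of the gene, introns included, overlaps 3 other annotated genes, 1 of them on the opposite strand. The counting method is given with no strand setting. Whether reads of that antisense gene entered the counts of Rps6ka1, or shared reads were set aside as ambiguous, is therefore not known. Map2k1 likewise overlaps 3 genes on the opposite strand.

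Rps6ka3, the RSK2 gene (ENSMUSG00000031309.16, chromosome X), had 50.8, 53.2 and 47.7 CPM in knockout replicates 1, 2 and 3, against 51.4, 47.8 and 45.8 CPM in wild-type replicates 1, 2 and 3. The genotypes overlapped throughout. Its means were 50.6 ± 2.71 CPM in knockout and 48.3 ± 2.81 CPM in wild type, a log2 fold change of 0.06 ± 0.09 (95% interval -0.14 to 0.27, edgeR adjusted p = 0.625). With the GC and length offsets Rps6ka3 passed the test at 0.37 ± 0.09 (edgeR adjusted p = 0.0148), so whether its level differed depended on that correction.

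Rps6ka2, the RSK3 gene (ENSMUSG00000023809.11, chromosome 17), had few reads: 82, 55 and 46 counts in knockout replicates 1, 2 and 3, against 30, 62 and 30 counts in wild-type replicates 1, 2 and 3. Its levels were 1.69 ± 0.577 CPM in knockout and 1.14 ± 0.541 CPM in wild type and overlapped. The log2 fold change of Rps6ka2 was 0.57 ± 0.42 (edgeR adjusted p = 0.332). Its 95% interval ran from -0.38 to 1.51, so the sign of a change could not be told from libraries that spread this widely. Leaving out 1 library moved the log2 fold change to 0.27 (knockout replicate 1), 0.32 (wild-type replicate 1) or 1.01 (wild-type replicate 2).

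Of the summed counts of Rps6ka1, Rps6ka2 and Rps6ka3, Rps6ka1 took 43.5%, 42.5% and 48.9% in knockout replicates 1, 2 and 3, against 29.1%, 29.5% and 33.7% in wild-type replicates 1, 2 and 3. Rps6ka3 took 54.0%, 55.9% and 49.8% in knockout, against 69.9%, 68.0% and 65.0% in wild type. Rps6ka2 took at most 2.50% in either genotype. The RSK4 gene Rps6ka6, named after its values were seen, is not in this sum. It had 68.5 ± 5.92 CPM in knockout and 61.4 ± 3.41 CPM in wild type, more than any of the 3 (log2 fold change 0.16, edgeR adjusted p = 0.234). With Rps6ka6 in the sum, each share would be smaller. The Wilson 95% intervals of these shares reach at most 1.95 percentage points to either side and cover counting error only. Rps6ka1 averaged 45.0 ± 3.45% in knockout and 30.8 ± 2.57% in wild type, with no overlap. The exact two-sided permutation p was 0.1 (0.167 adjusted over 5 ratios), and 0.1 is the smallest p that this permutation test can give with 3 against 3 libraries. A ratio within a library does not depend on the scaling factors, but these shares carry no correction for GC content and length, under which the log2 fold changes were 0.78 for Rps6ka1 and 0.37 for Rps6ka3, against 0.96 and 0.06 without it. The summed level of the 3 genes was 94.0, 95.03 and 96.0 CPM in knockout, against 73.5, 70.3 and 70.5 CPM in wild type (exact two-sided permutation p = 0.1). These are shares of reads and not of molecules, since the transcripts differ in length.

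**Figure D3:**
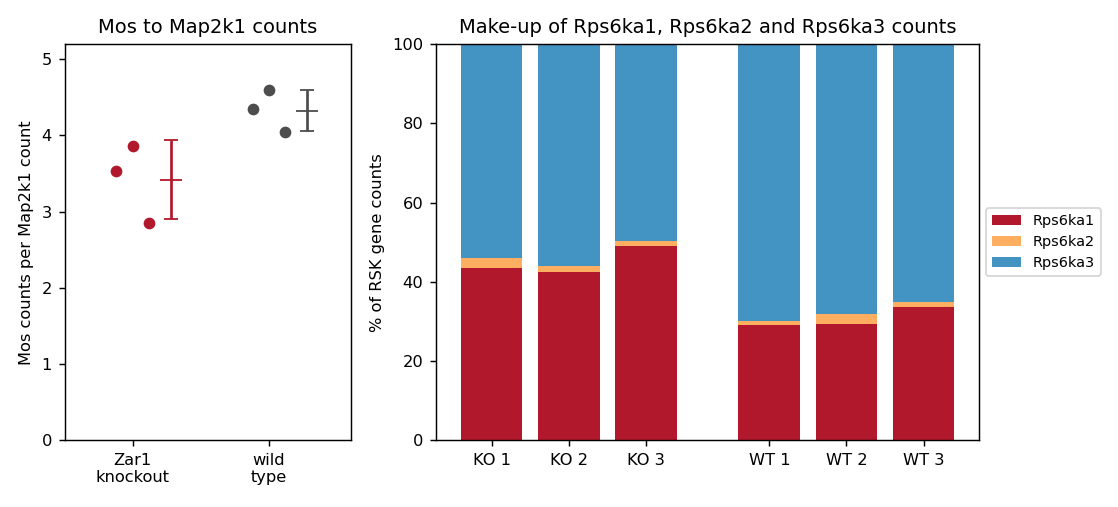
Left, Mos counts per Map2k1 count in each library, with the mean ± SD (n = 3) beside the points. Right, the percentage of the summed counts of Rps6ka1, Rps6ka2 and Rps6ka3 that each took in each library, without Rps6ka6. Zar1 knockout libraries (KO) lie left of wild-type libraries (WT) in both panels. The ratio lies between 2.85 and 3.86 in knockout and between 4.05 and 4.59 in wild type, and Rps6ka1 takes 42.5% or more in every knockout library against 33.7% or less in every wild-type library.

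The ratio of the first 2 kinases of the cascade also did not overlap between genotypes, though neither gene passed the test. For single genes, the CPM of the genotypes did not overlap, in either direction, in 47.8% of all tested genes. Such a share was not computed for ratios or for the RSK shares above. Mos had 3.54, 3.86 and 2.85 counts per count of Map2k1 in knockout replicates 1, 2 and 3, against 4.34, 4.59 and 4.05 in wild-type replicates 1, 2 and 3. The means were 3.42 ± 0.518 in knockout and 4.33 ± 0.270 in wild type, a difference of -0.35 on the log2 scale (exact two-sided permutation p = 0.1, 0.167 adjusted over the 5 ratios). The difference was -0.22 once knockout replicate 3 was left out. Map2k1 had 20.3, 13.7 and 16.1 counts per count of Map2k2 in knockout, against 17.5, 17.1 and 18.9 in wild type, and the genotypes overlapped (exact two-sided permutation p = 0.6).

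Levels of different genes were compared per transcript length, in TPM (counts divided by the median annotated transcript length and scaled to a fixed total per library). Mos stood first, with 1341 ± 80.2 TPM in knockout and 1569.7 ± 98.8 TPM in wild type (SD, n = 3 each here and below). Map2k1 followed with 751 ± 85.9 TPM in knockout and 686 ± 18.7 TPM in wild type. Mapk3 had 257 ± 11.7 TPM in knockout and 192 ± 7.21 TPM in wild type. The RSK2 gene Rps6ka3 had 77.8 ± 3.78 TPM in knockout and 77.9 ± 5.53 TPM in wild type, above Map2k2 with 38.5 ± 8.37 and 32.2 ± 1.503 TPM in knockout and wild type. Rps6ka1 had 20.5 ± 1.80 TPM in knockout and 11.0 ± 0.832 TPM in wild type. Rps6ka2 was last, with 1.13 TPM in knockout and 0.795 TPM in wild type. This order was the same in both genotypes, and no neighbours in it overlapped in the libraries of either genotype.

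Part of that order depends on the transcript length assumed. With the longest annotated transcript in place of the median length, Mos stayed first (3074 TPM in knockout, 3649 TPM in wild type), followed by Map2k1 (541 TPM in knockout, 502 TPM in wild type), and Rps6ka2 stayed last (0.793 TPM in knockout, 0.564 TPM in wild type). Mapk3 stayed next after Map2k1, at 269 TPM in knockout and 204 TPM in wild type. Rps6ka1 then stood above Rps6ka3, at 34.5 against 17.6 TPM in knockout and, by little, 18.8 against 17.9 TPM in wild type. Map2k2, at 33.7 TPM in knockout and 28.5 TPM in wild type, also stood above Rps6ka3, and it lay above Rps6ka1 in wild type but just below it in knockout. The order of Map2k2, Rps6ka1 and Rps6ka3 therefore depended on the length used.

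The genes whose levels followed Mos most closely over the 6 libraries were taken among 7304 genes by the root mean square difference of log2 CPM after centring. Among the closest 5 were Utp6 (0.0257), Lgmn (0.0337), Ndufc2 (0.0393) and Wbp11 (0.0402). Utp6 averaged 43.4 CPM in knockout and 49.0 CPM in wild type, and Lgmn, a lysosomal protease, 65.1 CPM in knockout and 71.4 CPM in wild type.

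Genes that feed into the MAPK kinases, namely RAS, RAF, their inhibitors and scaffolds, changed in both directions. Of 25 listed genes 24 were tested, and 7 were higher, 4 lower and 13 did not pass, with a median log2 fold change of -0.0026 (all genes 0.00745) and 45.8% called against 33.4% of all genes. Nras, a RAS gene, was lower, at 30.7 ± 2.75 CPM in knockout and 50.8 ± 2.84 CPM in wild type (log2 fold change -0.73, edgeR adjusted p = 0.000832). Hras, another RAS gene, named after its values were seen, was higher, at 52.1 ± 3.59 CPM in knockout and 35.7 ± 2.61 CPM in wild type (0.55, 0.00311). Among feedback inhibitors of RAS signalling, Spry1 was higher, at 90.9 ± 3.38 CPM in knockout and 46.9 ± 4.30 CPM in wild type (0.96, 0.000132). Spred2 was lower, at 12.7 ± 2.28 CPM in knockout and 29.1 ± 2.02 CPM in wild type (-1.19, 0.000489). Lamtor1, which anchors a MEK1 scaffold on late endosomes, was higher, at 112 ± 10.3 CPM in knockout and 66.1 ± 5.12 CPM in wild type (0.76, 0.000518).

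Other MAP kinases and MAPK kinases also changed in both directions. Of 17 listed genes 15 were tested, and 2 were higher, 2 lower and 11 did not pass. That is 26.7% called against 33.4% of all genes, with a median log2 fold change of 0.05. The JNK1 gene Mapk8 was lower, at 167 ± 15.1 CPM in knockout and 215 ± 9.36 CPM in wild type (-0.36, edgeR adjusted p = 0.0105), a call that was lost with the GC and length offsets (-0.069, 0.558). The ERK5 gene Mapk7 was higher, at 15.3 ± 4.24 CPM in knockout and 9.24 ± 0.608 CPM in wild type (0.73, 0.0224), and this call was lost without wild-type replicate 1, 2 or 3 (0.0613, 0.0612 and 0.0841). Mapk7 was at 0.48 on the log2 scale once knockout replicate 3 was left out. Mapk12, a p38 kinase gene, had 54, 18 and 14 counts in knockout replicates 1, 2 and 3, against 3, 2 and 1 counts in wild-type replicates 1, 2 and 3.

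Of 11 other RSK, MSK and MNK family genes and their partners 9 were tested, and 2 were higher, 2 lower and 5 did not pass. The share called was 44.4%, against 33.4% of all genes, with a median log2 fold change of 0.16. Mknk2, a kinase that ERK activates and that phosphorylates the cap-binding protein eIF4E, was higher, at 88.4 ± 10.5 CPM in knockout and 40.1 ± 0.861 CPM in wild type (1.14, edgeR adjusted p = 9.58e-05). Rps6kb1, the S6 kinase of the mTOR pathway, was lower, at 65.8 ± 0.677 CPM in knockout and 92.1 ± 5.10 CPM in wild type (-0.49, 0.00177), but did not pass with the GC and length offsets (-0.19, 0.0934). Pdpk1, which phosphorylates RSK in its activation loop, was higher, at 368 ± 45.3 CPM in knockout and 306 ± 1.78 CPM in wild type (0.27, 0.0488). That call was lost without wild-type replicate 1, 2 or 3 and without knockout replicate 2 or 3 (edgeR adjusted p from 0.0625 to 0.133), and with library sizes alone, limma-voom or the replicate block (0.0503 to 0.0741), and with the GC and length offsets it was larger (0.49, 0.00267). Mapkapk3 was lower near the detection limit, at 1.44 ± 0.286 CPM in knockout and 2.82 ± 0.708 CPM in wild type (-0.97, 0.0345), and was lost without any 1 of wild-type replicates 1, 2 and 3 or knockout replicates 2 and 3 (0.0547 to 0.143) and with the replicate number as a block (0.0592).

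Phosphatases of MAP kinases changed in both directions. Of 18 listed genes 16 were tested, and 7 were higher, 5 lower and 4 did not pass (75% called against 33.4% of all genes, median log2 fold change 0.17). Several of the genes that moved act mainly on p38 and JNK rather than on ERK: Dusp8, Dusp10 and Dusp16 are of that kind. Ptprr, a tyrosine phosphatase that binds and inactivates ERK, was lower, at 296 ± 11.4 CPM in knockout and 626 ± 59.0 CPM in wild type (log2 fold change -1.08 ± 0.08, edgeR adjusted p = 4.5e-05). Dusp8 had 148, 112 and 157 counts in knockout replicates 1, 2 and 3, against 13, 11 and 17 counts in wild-type replicates 1, 2 and 3 (3.31 ± 0.34, 0.000173). Dusp10 was higher, at 47.0 ± 3.27 CPM in knockout and 27.5 ± 1.46 CPM in wild type (0.77, 0.000542), and Dusp16 lower, at 7.19 ± 0.961 CPM in knockout and 17.8 ± 1.44 CPM in wild type (-1.31, 0.000351). Dusp2, a nuclear phosphatase of ERK, was higher, at 11.6 ± 2.19 CPM in knockout and 3.79 ± 0.888 CPM in wild type (1.61, 0.000901). Dusp5, Dusp6 and Dusp7, which encode ERK phosphatases, are named after their values were seen. Dusp5 had 29, 38 and 159 counts in knockout replicates 1, 2 and 3, against 8, 1 and 3 counts in wild-type replicates 1, 2 and 3, so that its high level in knockout rests mostly on replicate 3. Dusp6 had 10, 9 and 15 counts in knockout against 52, 37 and 31 counts in wild type (-1.80 ± 0.39, edgeR adjusted p = 0.00783). Dusp7, known to be needed for meiotic resumption of mouse oocytes, had 325 ± 25.004 CPM in knockout and 252 ± 8.70 CPM in wild type (0.37, 0.00652), a call that was lost with the GC and length offsets (0.17, 0.0963).

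**Figure D4:**
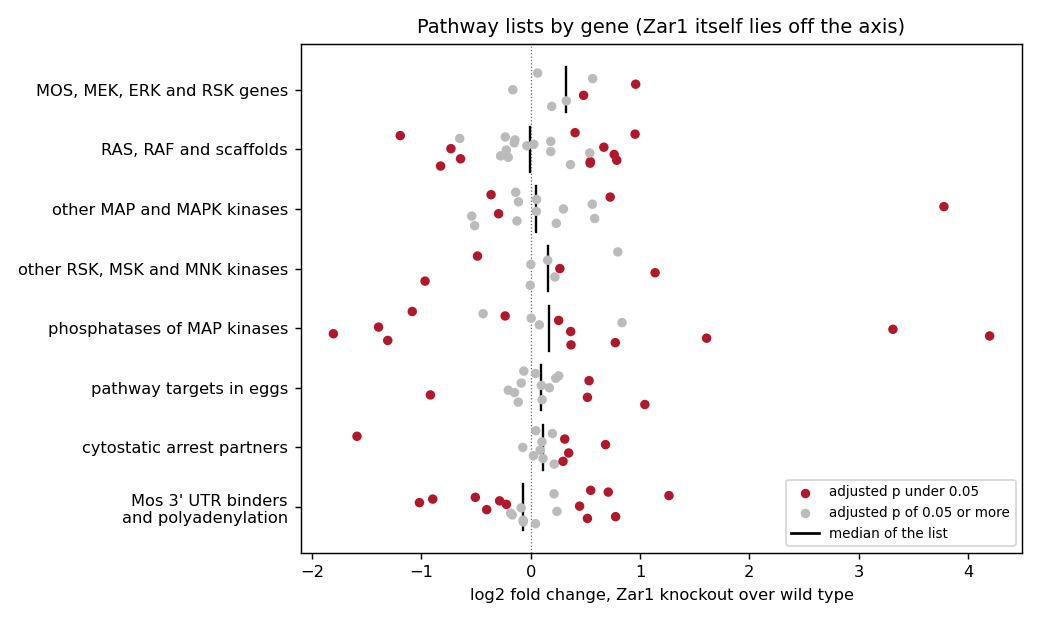
Log2 fold change of Zar1 knockout over wild type for each tested gene of the cascade and of 7 lists of related genes, with 1 row per list. Red points passed an adjusted p of 0.05, grey points did not, black bars are list medians, and Zar1 lies off the axis. Each of the 7 lists of related genes holds genes that passed in both directions, while the cascade itself has 2 higher and 0 lower.

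Of 15 genes listed as targets of the cascade, 3 were higher, 1 was lower and 11 did not pass. That is 26.7% called against 33.4% of all genes, with a median log2 fold change of 0.10. The list came from textbook knowledge of the pathway, and whether each gene is a target in eggs was not tested. Eif4b, a translation initiation factor that RSK phosphorylates, was lower, at 217 ± 22.2 CPM in knockout and 410 ± 24.9 CPM in wild type (-0.92, edgeR adjusted p = 0.000139). Cpeb1, which encodes the protein that binds CPEs, was higher, at 9494 ± 879 CPM in knockout and 6622 ± 390 CPM in wild type (0.52, 0.00148). Rps6, a ribosomal protein phosphorylated by S6 kinases, had 38.6 ± 4.70 CPM in knockout and 26.6 ± 0.706 CPM in wild type (0.53, 0.00732), but did not pass with the GC and length offsets (0.21, 0.186). The call of Bad, at 2.00 ± 0.759 CPM in knockout and 0.966 ± 0.0932 CPM in wild type, was lost under 12 of 18 alternatives (adjusted p from 0.0265 to 0.262 over all of them). Cdk2ap2, which encodes an ERK substrate of the meiotic spindle in mouse oocytes and is named after its values were seen, did not pass. It had 123 ± 12.6 CPM in knockout and 114 ± 4.62 CPM in wild type (0.10, 0.414; -0.21 with the GC and length offsets).

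Of 13 partners of the cascade in metaphase arrest and its release, 4 were higher, 1 was lower and 8 did not pass. The share called was 38.5%, against 33.4% of all genes, with a median log2 fold change of 0.11. Fzr1, whose product CDH1 directs cyclin B to degradation and so keeps GV oocytes in prophase, was higher, at 65.8 ± 5.56 CPM in knockout and 40.9 ± 0.129 CPM in wild type (0.69, edgeR adjusted p = 0.000669; 0.41 with the GC and length offsets). Camk2g, the kinase that releases mouse eggs from metaphase arrest after sperm entry, was higher, at 1072 ± 65.3 CPM in knockout and 872 ± 25.8 CPM in wild type (0.30, 0.00976). Ppp3ca, a catalytic subunit of the phosphatase calcineurin, was lower, at 6.78 ± 1.53 CPM in knockout and 20.4 ± 4.31 CPM in wild type (-1.59, 0.000723). Plk1 and Cdc20 passed at 0.0359 and 0.0481, but the calls were lost with the GC and length offsets (0.293 and 0.292) and with library sizes alone (0.0580 and 0.0573), and that of Plk1 with the replicate block (0.0723). Leaving out any 1 of wild-type replicates 1 and 3 and knockout replicates 2 and 3 also ended both calls, and leaving out wild-type replicate 2 ended that of Plk1 (edgeR adjusted p from 0.0701 to 0.127 for Plk1 and from 0.0917 to 0.172 for Cdc20).

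Proteins that bind the Mos 3′ UTR or act in its polyadenylation were the list that holds Zar1 itself. Of 22 listed genes 21 were tested, and 6 were higher, 7 lower (Zar1 among them) and 8 did not pass. The share called was 61.9%, against 33.4% of all genes, with a median log2 fold change of -0.07. That share counts Zar1, the gene that was knocked out. Cpeb2 was higher, at 21.4 ± 1.43 CPM in knockout and 12.5 ± 0.210 CPM in wild type (0.78, edgeR adjusted p = 0.00145). Ybx2, the oocyte RNA-packaging protein MSY2, was higher, at 74.4 ± 2.01 CPM in knockout and 45.5 ± 5.53 CPM in wild type (0.71, 0.000983), but did not pass with the GC and length offsets (0.26, 0.0633). Pum2, an RNA-binding repressor, was lower, at 142 ± 9.20 CPM in knockout and 202 ± 7.74 CPM in wild type (-0.51, 0.00129; -0.23 with the offsets). Msi2 and Dazl are named after their values were seen. Msi2, a Musashi protein whose family binds Mos mRNA in Xenopus, was lower, at 4.74 ± 1.08 CPM in knockout and 9.59 ± 0.218 CPM in wild type (-1.02, 0.00438). Dazl had 1330.1 ± 53.8 CPM in knockout and 1551 ± 70.4 CPM in wild type (-0.22, 0.0286), and its call was lost without wild-type replicate 2 or 3, without knockout replicate 1 or 2 (0.0559 to 0.125), with upper-quartile factors (0.0669), with the replicate block (0.0650), and with the GC and length offsets, where its log2 fold change was 0.011.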

How the data were processed

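PolyA RNA-seq of 6 pools of 10 mouse GV oocytes was analysed, 3 from Zar1 knockout and 3 from wild type, grouped by their labels. The authors deposited raw counts per gene. The submitters' processing notes name HTSeq 0.13.5, STAR 2.7.8a, cutadapt 2.8 and bcl2fastq 2.20.0.422, with mm39 as the build. In the sources used here, annotation release and strand setting are not given. Symbols were found for 52093 of 53700 genes. Summary rows of the counting stayed out of library sizes and tests. The test was edgeR 4.0.16 in R 4.3.3 (TMM, filterByExpr, glmQLFit, glmQLFTest, two-sided, Benjamini-Hochberg adjusted over 16473 genes). It was also run on simulated counts with 200 changed genes and the same dispersion for every gene. Far more genes were called in these data, so that run does not give the error rate here. Standard errors are the absolute log2 fold change over the root of F. Lengths, GC content and 3′ UTRs came from GENCODE M21 on GRCm38, a build other than that of the files, so no coordinates are given. GC and length values covered 99.7% of tested genes. No pair of libraries of a genotype agreed within sampling noise. Exact permutation tests, two-sided, compared ratios within libraries. The alternatives tried were DESeq2 1.42.0, voom in limma 3.58.1, scaling by RLE or upper quartiles or by library sizes alone, no filter or a CPM filter on low counts, the replicate number as a block, GC and length offsets, a test against a 1.5-fold change, an adjusted p of 0.01, leaving out the mitochondrial genome, and leaving out each library.

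The members and gene lists were chosen with earlier results of these data known. Named genes are all members, Zar1, from each list up to 5 called genes with the smallest adjusted p, and the 5 genes most like Mos among symbols that are no predicted model with a mean of at least 10 CPM. Listed genes that were not tested had too few counts, except Rps6ka4, which is not analysed here. Results on some genes that this rule takes are not reported here, though counts over lists include them.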

Additional observations from a re-analysis of the deposited data

How the results depend on the processing

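Over 18 alternatives Rps6ka1 passed as higher each time (log2 fold change 0.78 to 1.01), and Mapk3 passed as higher in all except the test against a 1.5-fold change (still 0.48). With the replicate number as a block, Mapk3 (0.48, edgeR adjusted p = 0.00660) and Rps6ka1 (0.96, 0.00121) passed and no call among the members changed. The same numbers did not mark shared deviations between the genotypes (correlations -0.00898, -0.0420 and -0.0252), so they were not read as pairs. GC and length offsets brought Mos (-0.29) and Rps6ka3 (0.37) past the threshold. Leaving out 1 library gave 0.22 to 0.51 for Map2k2. With the offsets the log2 fold changes of Cdk2ap2 (-0.21) and Dazl (0.011) changed sign. Members called higher numbered 1 under the 1.5-fold test, and 1 member was lower with the offsets. Of all genes, 2448 were higher and 3051 lower, against 417 and 1067 under the 1.5-fold test and 1171 and 1861 at an adjusted p of 0.01, with 1541 to 2509 higher when 1 library was left out. The median log2 fold change of all genes stayed between -0.03 and 0.06. The cause of these shifts was not tested.

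Counts in the lists moved as follows. Under the 1.5-fold test, RAS, RAF and scaffolds had 1 higher and 1 lower, other MAP and MAPK kinases 1 and 0, other RSK, MSK and MNK kinases 1 and 0, phosphatases 3 and 3, targets 0 higher, arrest partners 0 higher and Mos 3′ UTR binders 0 higher and 1 lower. With the offsets, other MAP and MAPK kinases had 4 higher and 0 lower, other RSK kinases 1 lower, phosphatases 4 higher and the binders 4 lower. At an adjusted p of 0.01, other MAP and MAPK kinases had 1 higher and 0 lower, other RSK kinases 1 and 1, phosphatases 3 lower, arrest partners 2 higher and the binders 4 lower. Upper-quartile factors and DESeq2 gave 4 higher other MAP and MAPK kinases. Library sizes alone, limma-voom and the replicate block gave 1 higher other RSK kinase, the block also 1 lower, and library sizes alone 2 higher arrest partners. Leaving out 1 library gave 1 to 3 higher and 1 to 2 lower other MAP and MAPK kinases, 1 to 2 higher and 1 to 2 lower other RSK kinases, 3 to 4 lower phosphatases and 2 to 4 higher arrest partners. For Rps6ka2, with at most 82 counts and libraries that spread widely within each genotype, a test can show little.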
